A study of Mus musculus with 6 samples.

Results

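Depolarising (ON) bipolar cells of the retina receive glutamate from rods and cones through the receptor mGluR6, and 10 genes of its signalling complex were examined in retinas with conditional deletion of *Mll1*. The genes, *Grm6*, *Trpm1*, *Nyx*, *Gpr179*, *Rgs7*, *Rgs11*, *Gnao1*, *Gng13*, *Pcp2* and *Prkca*, were chosen by symbol for their place in this pathway or as rod bipolar cell markers, with earlier results of these data known. All 10 of the 10 were among the 11339 genes with values.

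RNA was sequenced from 3 *Mll1KO* samples (*Mll1* fl/fl with a Cre transgene) and 3 wild-type (WT) samples of strain C57Bl6/J at postnatal day 14, named a, b and c in each genotype, each from a pair of retinas. The Cre line acts in retinal progenitors, so that any cell type descending from them can carry the deletion, and the WT labels mention no Cre, so that effects of Cre and of the deletion cannot be told apart. The methods call the samples biological replicates, and p-values measure the spread between them. In such bulk samples, fewer cells of a type and less RNA per cell cannot be told apart.

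WT libraries a, b and c contained 23836033, 19777205 and 19323512 reads, and *Mll1KO* libraries a, b and c contained 23348923, 19855963 and 17961097. Among the 10 genes the lowest read number in any library was 357, for *Gng13*. The highest was 17200, for *Trpm1*.

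*Kmt2a*, the gene of MLL1, spans bases 44803355 to 44881296 of chromosome 9 (GRCm38, minus strand). Its level was 36.1, 36.9 and 34.6 RPKM (reads scaled to gene length and library total) in WT a, b and c and 22.9, 20.4 and 22.3 RPKM in *Mll1KO* a, b and c. The *Mll1KO* mean was 60.9% of the WT mean, and the log2 fold change was -0.69 (SE 0.05, limma adjusted p 2.78e-05). The call held in 17 of 17 alternatives. The loxP sites remove only a small part of the gene, so the remaining level does not measure the share of undeleted cells.

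Glutamate released in darkness keeps mGluR6 active, and the receptor acts through the G protein Go to close the cation channel TRPM1. Light lowers glutamate, the RGS proteins hasten the end of Go signalling, and the channel opens to depolarise the cell. Nyctalopin and GPR179 hold the receptor, channel and RGS proteins together at the dendritic tip.

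By limma, 0 of the 10 genes were higher in *Mll1KO*, 4 were lower (*Trpm1*, *Gpr179*, *Grm6* and *Gnao1*) and 6 were not called. At an unadjusted p under 0.05, 1 was higher and 5 were lower, against 1543 higher and 2643 lower of all 11339 genes. Limma-voom called 0 higher and 4 lower, against 1082 higher and 1823 lower of all genes. TMM, RLE and upper-quartile factors each gave 1 higher and 2 lower. Among all genes they gave 1257, 1276 and 1273 higher and 1163, 1126 and 1138 lower. Rod scaling gave 0 higher and 7 lower, and pan-bipolar scaling 7 higher and 0 lower. Of all 11339 genes, 6820 were lower with rod scaling and 9919 higher with pan-bipolar scaling. Without WT a, WT b, *Mll1KO* b or *Mll1KO* c, 2 of the 10 were lower, against 1227, 1030, 1178 and 1053 of all genes. Of all genes, 23.3% were called in either direction, 14.5% lower and 8.81% higher, which is 2643, 1644 and 999 genes. All *Mll1KO* samples lay below all WT samples for 4 of the 10 (*Trpm1*, *Gpr179*, *Gnao1* and *Prkca*), against 26.5% of all genes. They lay above for 1 of the 10 (*Rgs11*), against 14.6% of all genes, and the groups overlapped for 5. The median log2 fold change was -0.12 over the 10 genes and -0.03 over all genes. Without WT a that of the 10 genes was -0.07, and pan-bipolar scaling turned it to 0.28.

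**Figure D1:**
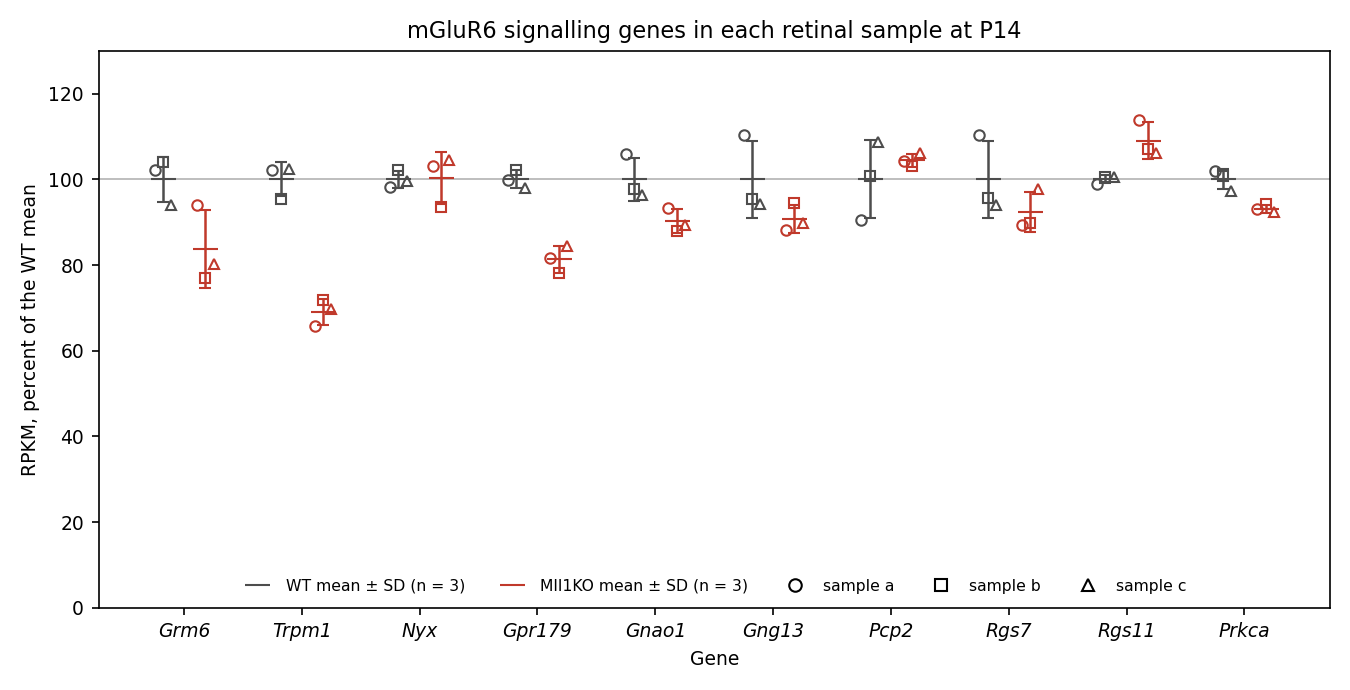
RPKM of each of the 10 genes in each sample, as percent of the WT mean of the gene (vertical axis), for WT (grey) and *Mll1KO* (red), with symbols for samples a, b and c, long bars for means and error bars for SD (n = 3). *Trpm1* in *Mll1KO* stood at 65.9%, 71.9% and 69.7%.

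The receptor and the channel came first in the order of the pathway. *Grm6*, which encodes mGluR6, spans bases 50850685 to 50866208 of chromosome 11 (plus strand, GENCODE vM21). Its RPKM was 79.0, 80.5 and 72.8 in WT a, b and c and 72.8, 59.5 and 62.0 in *Mll1KO* a, b and c, so that the groups overlapped at WT c and *Mll1KO* a. The means were 77.4 ± 4.10 and 64.8 ± 7.05 (SD, n = 3), and the log2 fold change was -0.26 (SE 0.07, 95% interval -0.42 to -0.10, limma adjusted p 0.0284). This call depended on the scaling and on single libraries. It was lost with scaling by TMM factors (limma adjusted p 0.0503), RLE factors (0.0525) and upper-quartile factors (0.0537). It was also lost without WT a (0.0823), WT b (0.0972), *Mll1KO* b (0.0919) or *Mll1KO* c (0.102), and over all alternatives the limma adjusted p ran from 0.00131 to 0.15. Scaling to pan-bipolar genes turned *Grm6* to 0.15, and it was called lower in 8 of 17 alternatives.

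*Trpm1*, the gene of the channel, spans bases 64153835 to 64269775 of chromosome 7 (plus strand). It was at 62.7, 58.6 and 62.9 RPKM in WT a, b and c and at 40.4, 44.1 and 42.8 RPKM in *Mll1KO* a, b and c, without overlap. The means were 61.4 ± 2.41 and 42.4 ± 1.86 RPKM (SD, n = 3), a drop to 69.1% of WT. The log2 fold change was -0.52 (SE 0.05, 95% interval -0.63 to -0.42, limma adjusted p 7.95e-05), the lowest of the 10 genes. Without single libraries it ran from -0.56 to -0.49. The call was lost in 1 of 17 alternatives, the scaling to pan-bipolar genes, where the change was -0.12 with a limma adjusted p of 0.0912 (2.99e-06 to 0.0912 over all alternatives).

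Melanocytes and the retinal pigment epithelium also transcribe *Trpm1*, so genes of these cells were read in each sample. Of 10 such genes 5 were listed (*Pmel*, *Tyrp1*, *Dct*, *Ttr* and *Rdh5*), while *Rpe65*, *Tyr*, *Mlana*, *Best1* and *Lrat* were not. Their summed level was 207, 105 and 314 RPKM in WT a, b and c and 92.6, 195 and 95.5 RPKM in *Mll1KO* a, b and c. With library totals limma called 0 of the 5, limma-voom called 0 and 1 was lower at an unadjusted p under 0.05. The median log2 fold change was -0.29 (0.09 with scaling to pan-bipolar genes), and single libraries moved it. It was -0.98 without WT b (3 called lower), -0.54 without *Mll1KO* b (2 called lower), -0.16 without *Mll1KO* a and -0.11 without WT c. *Ttr* was the most abundant, and *Pmel*, the lowest in fold change at -1.48 (limma adjusted p 0.113), had 57.1, 15.1 and 99.4 RPKM in WT and 9.37, 34.0 and 11.0 RPKM in *Mll1KO*. The limma adjusted p of *Pmel* ran from 0.0123 to 0.311 over the alternatives, and it was called lower in 5 of 17. These were rod scaling (0.0339), pan-bipolar scaling (0.0358), the fit without WT b, that without *Mll1KO* b, and that without the 3 libraries highest in pigment genes, where its change was -0.53. The latter fit left out libraries by the sum of these same 5 genes and kept 1 WT sample, so its calls of them decide nothing. The median of the 5 in it was -0.0011. Over all removals of a single library, the change of *Pmel* ran from -2.23 to -0.91. *Ttr* (-0.28) was called lower without *Mll1KO* b, and pan-bipolar scaling turned it to 0.13. *Rdh5* went the other way and was the highest in fold change at 0.16 (limma adjusted p 0.554). It was called higher with pan-bipolar scaling (0.51, limma adjusted p 0.00538) and turned to -0.033 without *Mll1KO* b.

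Within each genotype, the order of the 3 samples by *Trpm1* was their order by pigment sum. Between genotypes, WT b had 58.6 RPKM of *Trpm1* at a pigment sum of 105 RPKM, and *Mll1KO* b had 44.1 RPKM at a pigment sum of 195 RPKM. Without WT c, WT a and *Mll1KO* b, the 3 libraries with the highest pigment sums, the log2 fold change of *Trpm1* was -0.49, with 1 WT sample remaining and a spread known only within *Mll1KO*. That set of samples was chosen after the values were seen. Whether pigment cells contributed to the *Trpm1* difference was not tested.

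**Figure D2:**
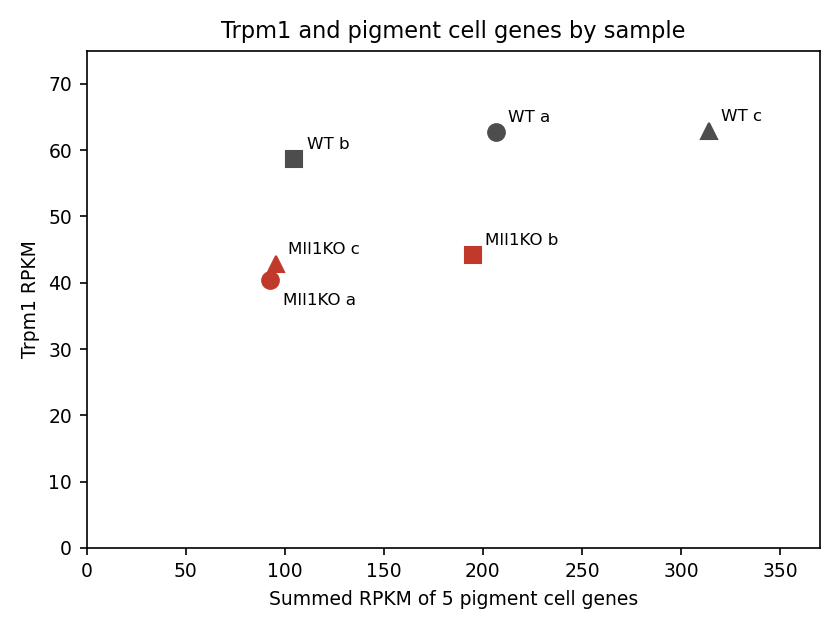
*Trpm1* RPKM (vertical axis) against the summed RPKM of 5 pigment cell genes (horizontal axis) in each of 6 samples, WT in grey and *Mll1KO* in red. Within each genotype the order of samples was the same on both axes, and *Mll1KO* b, with a pigment sum of 195 RPKM, had less *Trpm1* than WT b, with a pigment sum of 105 RPKM.

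Of the anchoring proteins, limma called 1. *Gpr179* encodes the orphan receptor that holds the RGS proteins at the dendritic tip and spans bases 97332109 to 97352077 of chromosome 11 (minus strand). Its RPKM was 46.5, 47.6 and 45.6 in WT and 38.0, 36.4 and 39.3 in *Mll1KO*, without overlap. It fell to 81.4% of WT, with a log2 fold change of -0.29 (SE 0.04, limma adjusted p 0.00109). Scaling to pan-bipolar genes turned the direction to 0.11 and ended the call (limma adjusted p 0.0877, 7.38e-05 to 0.0877 over the alternatives). *Nyx*, spanning 13466110 to 13489313 of chromosome X (plus strand), encodes nyctalopin, the leucine-rich protein that places TRPM1 in the membrane. Levels of 4.49, 4.67 and 4.56 RPKM in WT and 4.72, 4.28 and 4.78 RPKM in *Mll1KO* overlapped. The log2 fold change of *Nyx* was 0.0029 with a 95% interval of -0.12 to 0.13 (limma adjusted p 0.976), an interval that does not reach the change of *Gpr179*, although the difference between these genes was not tested. Without WT a, *Mll1KO* a or *Mll1KO* c the sign of the *Nyx* change turned, with a lowest value of -0.022.

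Of the 3 genes for G protein subunits and their regulator, limma called 1. *Gnao1* encodes the alpha subunit of Go, is transcribed in many retinal neurons besides bipolar cells, and spans bases 93809966 to 93969388 of chromosome 8 (plus strand). Its RPKM was 103, 95.1 and 93.6 in WT and 90.7, 85.4 and 86.9 in *Mll1KO*, without overlap and at 90.2% of WT. The log2 fold change was -0.15 (SE 0.05, limma adjusted p 0.0473). The call was lost with TMM (0.13), RLE (0.144) and upper-quartile (0.124) factors, and without WT a (0.113), WT b (0.0852), *Mll1KO* b (0.138) or *Mll1KO* c (0.131). Scaling to pan-bipolar genes turned it to 0.26 with a call, and limma adjusted p over all alternatives ran from 0.000618 to 0.412.

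*Gng13* encodes the gamma subunit of the complex and spans bases 25717171 to 25719406 of chromosome 17 (plus strand). It had 31.6, 27.3 and 27.0 RPKM in WT and 25.2, 27.0 and 25.7 RPKM in *Mll1KO*, and the groups overlapped (log2 fold change -0.13, limma adjusted p 0.15). Without WT a the change was -0.06. Of its exon bases, 51.6% are shared with *Chtf18* on the opposite strand, a gene with 4.84, 4.35 and 4.98 RPKM in WT and 3.27, 3.88 and 3.07 RPKM in *Mll1KO*. *Chtf18* was called lower (log2 fold change -0.38, limma adjusted p 0.00668). *Pcp2*, spanning 3623371 to 3625545 of chromosome 8 (minus strand), encodes a regulator of Go found in ON bipolar cells. Its levels of 43.9, 48.9 and 52.7 RPKM in WT and 50.6, 49.9 and 51.4 RPKM in *Mll1KO* overlapped (log2 fold change 0.07, limma adjusted p 0.467). Without WT a the value was -0.0032.

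*Pcp2* shares 51.5% of its exon bases with *Pet100* on the opposite strand, which had 6.46, 6.93 and 9.18 RPKM in WT and 5.30, 5.63 and 6.60 RPKM in *Mll1KO*. *Grm6* shares 11.1% with *Gm12660*, also on the opposite strand, at 17.5, 12.3 and 12.5 RPKM in WT and 12.1, 9.03 and 10.6 RPKM in *Mll1KO*. Neither neighbour was called by limma. Whether the libraries kept the strand of the RNA was not given in the sources used here, and the part of the reads that comes from the neighbours was not tested.

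The RGS proteins shorten the life of active Go, and each can serve in the absence of the other. *Rgs7* spans bases 175059087 to 175492500 of chromosome 1 (minus strand). It had 23.2, 20.1 and 19.8 RPKM in WT and 18.8, 18.9 and 20.5 RPKM in *Mll1KO*, which overlapped (log2 fold change -0.11, limma adjusted p 0.25). Without WT a the change was -0.04, just above the median of all genes in that fit. *Rgs11* spans bases 26202951 to 26211324 of chromosome 17 (plus strand), 483544 bases from *Gng13*. With 24.3, 24.7 and 24.7 RPKM in WT and 28.0, 26.3 and 26.1 RPKM in *Mll1KO*, it was the only one of the 10 with all *Mll1KO* samples above all WT samples. Its mean was 109% of WT (log2 fold change 0.12, SE 0.04, limma adjusted p 0.066), and it was not called. It was called higher with TMM (limma adjusted p 0.0272), RLE (0.0261) and upper-quartile (0.0279) factors, against a range of 6.28e-06 to 0.375 over all alternatives. Scaling to rod genes turned its direction to -0.052.

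*Prkca* encodes protein kinase C alpha, the usual antibody marker of rod bipolar cells, and spans bases 107933387 to 108343928 of chromosome 11 (minus strand). Its levels were 52.2, 51.5 and 49.9 RPKM in WT and 47.7, 48.2 and 47.2 RPKM in *Mll1KO*, with all *Mll1KO* samples below all WT samples. The mean was 93.2% of WT (log2 fold change -0.10, SE 0.04), and limma made no call (adjusted p 0.079). It was called lower with rod scaling (-0.27) and higher with pan-bipolar scaling (0.30), with limma adjusted p from 0.000287 to 0.321 over all alternatives.

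**Figure D3:**
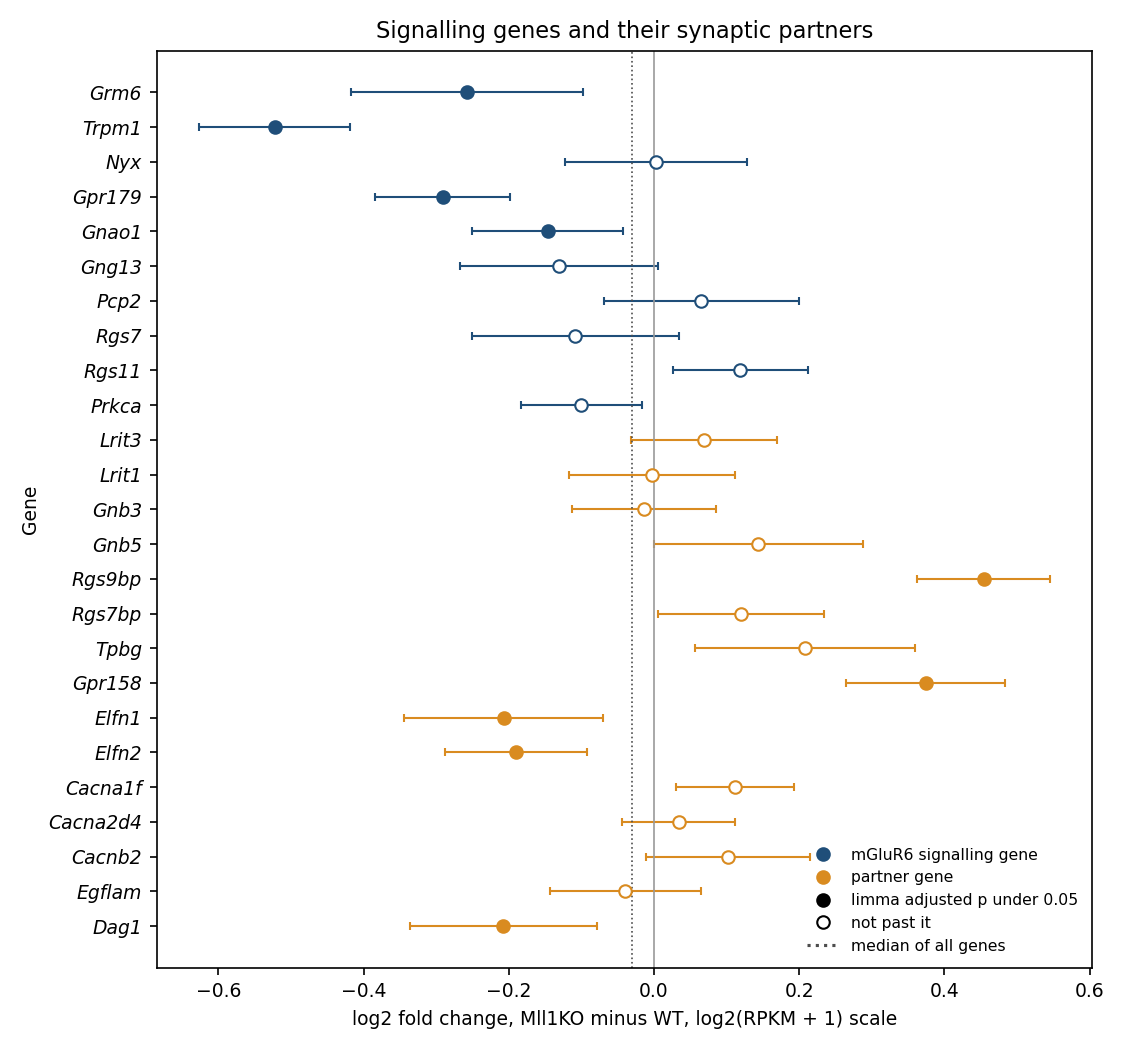
Log2 fold change, *Mll1KO* minus WT on the log2(RPKM + 1) scale (horizontal axis), of the 10 signalling genes (blue) and 15 partner genes (orange), with 95% intervals from limma, filled circles for a limma adjusted p under 0.05 and a dotted line at the median of all genes, -0.03. *Trpm1* is lowest at -0.52 and *Rgs9bp* highest at 0.45.

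Per length of the gene, *Gnao1* was the most abundant of the 10 in WT at 97.1 RPKM. *Grm6* followed at 77.4 RPKM, *Trpm1* at 61.4 RPKM, *Prkca* at 51.2 RPKM, *Pcp2* at 48.5 RPKM and *Gpr179* at 46.6 RPKM, where the WT samples of *Pcp2* overlapped those of both neighbours in this order. *Gng13* had 28.6 RPKM, *Rgs11* 24.6 RPKM, *Rgs7* 21.0 RPKM and *Nyx* 4.58 RPKM. The gene length behind the values differed from the annotated exon bases for *Rgs7* (1418 against 6019), *Gnao1* (6785 against 11053) and *Trpm1* (11512 against 14746), which bears on these ranks.

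Ratios to *Grm6* within a library do not depend on its scaling, and 9 were computed. The ratio of *Rgs11* to *Grm6* was 0.307, 0.307 and 0.339 in WT and 0.384, 0.442 and 0.42 in *Mll1KO*, a log2 difference of 0.38. For *Nyx* the ratio was 0.0568, 0.0581 and 0.0627 in WT and 0.0648, 0.0718 and 0.077 in *Mll1KO*, a log2 difference of 0.26. Both had an exact two-sided permutation p of 0.1, and 3 against 3 samples allow no smaller value. With Benjamini-Hochberg adjustment over the 9 ratios this permutation p became 0.386 for both. All 9 ratios share *Grm6*, so they are not independent of each other. The ratio of *Trpm1* was 0.793, 0.728 and 0.864 in WT and 0.555, 0.741 and 0.689 in *Mll1KO*, which overlapped (log2 difference -0.27, exact permutation p 0.2). It was -0.15 without *Mll1KO* a and -0.36 without *Mll1KO* b. The 6 other ratios overlapped as well, with log2 differences from -0.04 for *Gpr179* to 0.33 for *Pcp2*. Without *Mll1KO* a, the difference for *Gpr179* was 0.048.

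The scaling set the level against which all 10 genes were read. Scaling the libraries to rod genes moved the median of all genes by -0.16 on the log2 scale, and scaling to pan-bipolar genes moved it by 0.36. Of the called genes 37.8% were higher with library totals, 51.9% with TMM factors, 5.44% with rod scaling and 98.6% with pan-bipolar scaling. Of the 10 genes, *Gng13*, *Rgs7* and *Prkca* were called lower with rod scaling besides the 4 called with library totals. Pan-bipolar scaling called *Nyx*, *Gnao1*, *Gng13*, *Pcp2*, *Rgs7*, *Rgs11* and *Prkca* higher. Relative to the median of all genes, *Trpm1* stood at -0.49 with library totals, -0.51 with the rod scaling and -0.45 with the pan-bipolar scaling. On that measure *Gpr179* stood at -0.26, -0.28 and -0.22, *Grm6* at -0.23, -0.25 and -0.18, and *Gnao1* at -0.12, -0.14 and -0.07. *Prkca* stood at -0.07, -0.09 and -0.03. *Nyx*, *Pcp2* and *Rgs11* were above the median of all genes in all settings tried, *Rgs11* at 0.15, 0.13 and 0.19.

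**Figure D4:**
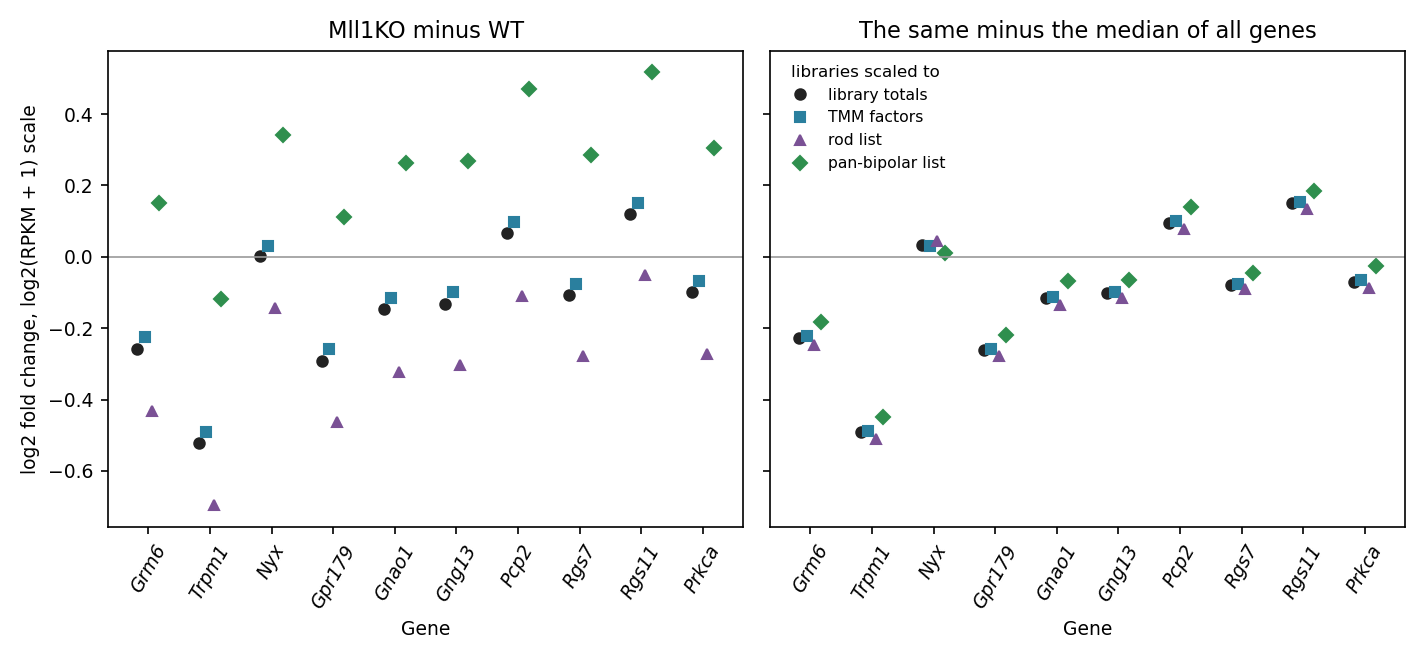
Log2 fold change of the 10 genes, *Mll1KO* minus WT on the log2(RPKM + 1) scale (vertical axes), with libraries scaled to library totals, TMM factors, rod genes or pan-bipolar genes, as such (left) and minus the median of all genes (right). With pan-bipolar scaling 9 of the 10 were positive, all but *Trpm1*, with rod scaling all 10 were negative, and minus the median *Nyx*, *Pcp2* and *Rgs11* were positive with each.

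Partner proteins of the complex were read next, 15 of 16 being listed and *Cabp4* not. Of the 15, limma called 2 higher and 3 lower, against 23.3% of all genes in either direction. TMM, RLE and upper-quartile factors each gave 4 higher and 1 lower, where TMM factors gave 1257 higher and 1163 lower among all genes. Limma-voom gave 4 higher and 3 lower, rod scaling 2 higher and 7 lower, and pan-bipolar scaling 15 higher and 0 lower. All *Mll1KO* samples were below WT for 3 of the 15 and above for 6, against 26.5% and 14.6% of all genes. Their median log2 fold change was 0.07, and it was -0.10 with scaling to rod genes and 0.04 without WT a. Without WT a or *Mll1KO* c, 2 were higher and 1 lower, and without *Mll1KO* b 3 were higher and 1 lower. On the bipolar side, *Rgs9bp*, whose membrane anchor serves RGS proteins of bipolar cells and also RGS9 of rods, had 75.2, 77.5 and 81.0 RPKM in WT and 106, 106 and 109 RPKM in *Mll1KO*. It rose to 137% of WT (log2 fold change 0.45, SE 0.04, limma adjusted p 8.29e-05) and was called in 17 of 17 alternatives. *Gpr158*, a relative of *Gpr179*, had 6.35, 6.21 and 6.44 RPKM in WT and 8.63, 8.66 and 8.22 RPKM in *Mll1KO*. It rose to 134% of WT (log2 fold change 0.37, SE 0.05, limma adjusted p 0.000656), also in 17 of 17 alternatives.

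The other 6 genes of that side were not called with library totals. *Tpbg*, another rod bipolar cell gene, was above WT in all *Mll1KO* samples (log2 fold change 0.21, limma adjusted p 0.0513) and was called with TMM factors (0.0299) and without *Mll1KO* b, over a range of 1.00e-05 to 0.512. The log2 fold change was 0.14 for *Gnb5*, the beta subunit bound to the RGS proteins, 0.12 for their anchor *Rgs7bp*, 0.07 for *Lrit3*, -0.0025 for *Lrit1* and -0.01 for *Gnb3*, the beta subunit of the Go complex. With scaling to rod genes, the values of *Gnb5*, *Rgs7bp* and *Lrit3* turned negative, and TMM factors turned those of *Lrit1* and *Gnb3* positive. *Lrit1* also turned positive without *Mll1KO* b or *Mll1KO* c, and *Gnb3* without WT b or *Mll1KO* a. Without single libraries *Lrit3* ran from 0.04 to 0.11. *Gnb5* was called higher without *Mll1KO* a, where its change was 0.21. Rods and other neurons also transcribe several of these genes.

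On the photoreceptor side of the synapse, *Elfn1*, the adhesion protein by which rods recruit mGluR6, had 71.6, 67.3 and 64.3 RPKM in WT and 64.1, 56.3 and 55.5 RPKM in *Mll1KO*, without overlap. It was called lower (log2 fold change -0.21, limma adjusted p 0.0359), and so were its relative *Elfn2* (-0.19, 0.0125) and the dystroglycan gene *Dag1* (-0.21, 0.0286). The call of *Elfn1* was lost without WT a, WT b, *Mll1KO* b or *Mll1KO* c, and that of *Dag1* without WT a or any *Mll1KO* sample, with changes of -0.27 to -0.17 and -0.25 to -0.14. Both calls were lost with TMM factors as well (0.0747 and 0.0693), over ranges of limma adjusted p from 0.00104 to 0.294 and from 0.000489 to 0.222. Scaling to pan-bipolar genes turned *Elfn1*, *Elfn2* and *Dag1* to 0.20, 0.20 and 0.19, with calls. The calcium channel gene *Cacna1f*, by which photoreceptors release glutamate, had all *Mll1KO* samples above WT (0.11, limma adjusted p 0.051), and limma called it with TMM factors (0.0178, range 2.83e-06 to 0.364). Its direction turned with rod scaling, as did those of *Cacna2d4* (0.03) and *Cacnb2* (0.10). *Egflam*, the pikachurin gene, stood at -0.04 and turned with pan-bipolar scaling and without WT b.

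Relatives of the 10 genes were read family by family. Among 7 other metabotropic glutamate receptor genes, limma called 2 higher and 3 lower, with a median log2 fold change of -0.15 that pan-bipolar scaling turned to 0.21 (4 higher, 0 lower). The counts were 1 higher and 1 lower without WT a or *Mll1KO* c, 1 and 2 without WT b or *Mll1KO* b, and 3 and 4 without *Mll1KO* a. *Grm8* was highest at 0.39 (3.27, 3.41 and 3.24 RPKM in WT, 4.59, 4.30 and 5.04 RPKM in *Mll1KO*), *Grm7* lowest at -0.25 and *Grm2* most abundant at -0.15. The call of *Grm7* was lost without WT a, WT b or *Mll1KO* c, with changes of -0.30 to -0.21 without single libraries, and *Grm2* was called lower without *Mll1KO* a. Of 4 other Gi class alpha subunits, *Gnai2*, the most abundant, was highest at 0.24 and *Gnai3* lowest at -0.14 (-0.19 to -0.08 without single libraries). Among them 1 was higher and 1 lower (*Gnaz*, -0.14), with a median of -0.12 that pan-bipolar scaling turned to 0.27. Rod scaling gave 0 higher and 3 lower, and pan-bipolar scaling 4 higher and 0 lower. The call of *Gnaz* was lost with TMM, RLE and upper-quartile factors and without WT b, WT c, *Mll1KO* b or *Mll1KO* c. Of 11 other gamma subunits 7 were listed, without *Gng5*, *Gng8*, *Gng10* and *Gng11*. Of these, 1 was higher (*Gngt1* of rods, the most abundant, 0.36) and 2 lower (*Gng4* lowest at -0.81), with a median of -0.11 that pan-bipolar scaling turned to 0.29. Pan-bipolar scaling also turned *Grm7*, *Grm2* and *Gnai3* positive, and rod scaling ended the call of *Gnai2*.

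Of 5 beta subunits *Gnb1*, the most abundant, was the only one called (0.23) and *Gnb4* was lowest at -0.12, with a median of -0.01 that TMM factors turned to 0.02 and that was 0.0048 without WT b and 0.0091 without *Mll1KO* a. The call of *Gnb1* was lost without WT b, *Mll1KO* b or *Mll1KO* c, with changes of 0.19 to 0.26 without single libraries. Both other RGS genes of the R7 family were called higher, *Rgs6* at 0.23 and *Rgs9*, the more abundant, at 0.23, while with rod scaling neither was called. The call of *Rgs9* was lost without WT b, and that of *Rgs6* without WT b, WT c, *Mll1KO* a or *Mll1KO* b, with lowest changes of 0.19 and 0.18. Of 7 other listed protein kinase C genes, 1 was higher and 2 lower (median -0.09, 0.30 with pan-bipolar scaling). Of the lower genes, *Prkci* (-0.16) lost its call with TMM, RLE and upper-quartile factors and whichever single library was left out. *Prkce* was highest at 0.16, *Prkcq* lowest at -0.29 and *Prkcb* most abundant at -0.09. The call of *Prkce* was lost without WT a, WT b, *Mll1KO* b or *Mll1KO* c, with changes of 0.14 to 0.18 without single libraries, and rod scaling turned it to -0.01. Rod scaling ended the call of *Gnb1*, and pan-bipolar scaling ended that of *Prkcq* and turned *Gnb4* and *Prkcb* positive.

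Markers of bipolar cells other than the 10 genes were measured beside them. Of 7 pan-bipolar genes, 5 were called lower by limma, with a median log2 fold change of -0.35 (0.05 with scaling to this same list). *Lhx4* was the lowest (-0.69) and *Scgn* the highest (0.04). Of 9 rod bipolar genes, 5 were called lower, with a median of -0.21. Pan-bipolar scaling turned this median to 0.19, with 5 called higher and 0 lower. Their sum was 191, 185 and 186 RPKM in WT and 164, 159 and 163 RPKM in *Mll1KO*, and *Prdm8* was both the lowest (-0.52) and the most abundant, with *Tpbg* highest.

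Of 7 genes chosen for ON cone bipolar cells 6 were listed, without *Cnmd*. Of these, 1 was higher (*Igfn1*, at 229.7% of WT) and 2 lower (*Isl1*, the most abundant, lowest at -0.54). Their median was -0.12 (0.25 with pan-bipolar scaling). Whether other cells also transcribe these genes, *Isl1* among them, was not tested. Without *Mll1KO* b, 2 were higher. Their sum was 73.9, 74.5 and 77.0 RPKM in WT and 74.4, 73.0 and 75.6 RPKM in *Mll1KO*. OFF bipolar cells use ionotropic glutamate receptors in place of mGluR6. Of 8 of their genes, 7 were lower and 1 higher, with a median of -0.44 (-0.12 with pan-bipolar scaling), *Neto1* lowest at -0.81, *Grik1* most abundant at -0.31 and *Syt2* highest at 0.18. Their sum was 63.1, 62.3 and 64.7 RPKM in WT and 46.9, 45.4 and 47.4 RPKM in *Mll1KO*. The call of *Syt2* was lost without each of WT a, WT b, WT c, *Mll1KO* a and *Mll1KO* c, with changes of 0.16 to 0.21. Whether fewer bipolar cells account for the lower level of *Trpm1*, *Gpr179*, *Grm6* or *Gnao1* was not tested.

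Other cell types share some of the 10 genes or partners. Of 9 amacrine cell genes, 3 were higher and 4 lower, with a median of 0.15 that rod scaling turned to -0.03. Rod scaling gave 1 higher and 4 lower, TMM factors 5 and 4, and pan-bipolar scaling 5 and 0. *C1ql2* was highest at 0.35, *Gad2* lowest at -0.49 and *C1ql1* most abundant at 0.15, called higher with TMM factors (limma adjusted p 0.0428, range 2.60e-06 to 0.586) and without *Mll1KO* a, where it was 0.18. Of 8 ganglion cell genes, 7 were called lower (median -0.53, or -0.12 with pan-bipolar scaling, where 1 was higher and 2 lower). *Pou4f2* was lowest at -0.89, *Slc17a6* highest at -0.15 (-0.21 to -0.06 without single libraries) and *Sncg* most abundant. Of 7 horizontal cell genes 5 were listed, without *Lhx1* and *Gja10*, and 4 were called lower (median -0.50, or -0.19 with pan-bipolar scaling, where 1 was higher and 3 lower; *Slc4a3* lowest at -0.70, *Calb1* highest at -0.13, *Prox1* most abundant).

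Rods also transcribe *Rgs9bp*, *Gnb5* and *Cacna1f*. Of 12 rod genes, 7 were higher and 1 lower (median 0.24, 0.65 with pan-bipolar scaling and 0.06 with scaling to this same list, where 2 were higher and 3 lower; *Pde6a* highest at 0.48 and *Nr2e3* lowest at -0.36). Whether the higher *Rgs9bp* came from rods or bipolar cells was not tested.

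Of 8 cone genes, 6 were higher and 1 lower (median 0.30, or 0.14 with rod scaling, where 4 were higher and 2 lower; *Arr3* highest at 0.66, *Opn1sw* lowest at -0.44 and most abundant). Of 8 Muller glia genes, 5 were called higher (median 0.38, or 0.20 with rod scaling, where 4 were higher and 2 lower; *Clu* highest at 0.68, *Sox9* lowest at -0.12, *Glul* most abundant). Of 7 microglia genes 4 were listed, without *C1qa*, *P2ry12* and *Aif1*. Of these, 0 were called by limma with library totals, by limma-voom or at an unadjusted p under 0.05. Their median was 0.05, -0.08 with rod scaling (1 lower), 0.01 without WT c and -0.0017 without *Mll1KO* b. With pan-bipolar scaling it was 0.36, and 4 were called higher. *C1qc* was highest at 0.15 (0.07 to 0.21 without single libraries). *C1qb* was lowest at -0.12 (-0.20 to -0.08) and most abundant. *C1qb* was called lower without *Mll1KO* c. Of 6 endothelial genes, 1 was higher (*Flt1*, 0.32) and 2 lower (*Kdr*, lowest at -0.73 and most abundant), with a median of -0.18 (0.16 with pan-bipolar scaling, -0.11 without WT a). Across these lists, pan-bipolar scaling ended the calls of *Prdm8*, *Grik1*, *Gad2*, *Sncg*, *Prox1*, *Nr2e3* and *Opn1sw*, and turned *Grik1*, *Nr2e3*, *Slc17a6*, *Calb1*, *Sox9* and *C1qb* positive. Rod scaling ended the call of *Syt2* and turned *Scgn* negative.

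Sequence upstream of the transcription starts was read for the core motif of OTX2, since this transcription factor acts in bipolar cells. The motif TAATCC (reverse complement GGATTA) is the core bound by OTX2 and its relative CRX. Windows of 250 bases upstream of RefSeq transcription starts were available for 9 of the 10 genes, 14 in all, and not for *Rgs11*. TAATCC on either strand was in 1 of the 14, against 6.25% of 32851 promoters of the same length. It lay in *Trpm1* promoter 1, as GGATTA from -34 to -29, at 64153801 to 64153806 on chromosome 7. A match describes the sequence, and binding was not measured.

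The windows of the receptor, the channel and their anchoring proteins that hold 0 annotated exon bases are given 5' to 3' on the strand of the gene, from the RefSeq annotation and sequence of GRCm38.p6, with motif letters in capitals. That of *Trpm1* spans 64153585 to 64153834 on chromosome 7 (plus strand), and that of *Grm6* spans 50850435 to 50850684 on chromosome 11 (plus strand). The *Gpr179* window spans 97352357 to 97352606 on chromosome 11 (minus strand), and the *Nyx* window spans 13460840 to 13461089 on chromosome X (plus strand). The windows of *Gpr179* and *Nyx* do not adjoin the GENCODE gene spans given for them, since their RefSeq starts lie farther upstream.

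Trpm1 promoter 1: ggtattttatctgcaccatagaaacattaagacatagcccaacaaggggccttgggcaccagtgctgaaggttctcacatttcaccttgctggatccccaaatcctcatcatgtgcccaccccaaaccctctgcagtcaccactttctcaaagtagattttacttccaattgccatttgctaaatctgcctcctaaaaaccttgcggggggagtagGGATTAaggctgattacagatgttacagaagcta

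Grm6 promoter 1: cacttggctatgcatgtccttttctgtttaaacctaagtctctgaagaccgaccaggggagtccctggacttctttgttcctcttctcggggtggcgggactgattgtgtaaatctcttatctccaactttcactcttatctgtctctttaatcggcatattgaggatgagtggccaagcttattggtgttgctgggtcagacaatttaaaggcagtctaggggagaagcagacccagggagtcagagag

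Gpr179 promoter 1: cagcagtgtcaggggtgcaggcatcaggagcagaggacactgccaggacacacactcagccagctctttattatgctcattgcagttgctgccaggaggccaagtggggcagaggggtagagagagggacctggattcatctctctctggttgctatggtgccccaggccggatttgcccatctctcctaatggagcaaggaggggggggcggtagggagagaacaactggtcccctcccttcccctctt

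Nyx promoter 1: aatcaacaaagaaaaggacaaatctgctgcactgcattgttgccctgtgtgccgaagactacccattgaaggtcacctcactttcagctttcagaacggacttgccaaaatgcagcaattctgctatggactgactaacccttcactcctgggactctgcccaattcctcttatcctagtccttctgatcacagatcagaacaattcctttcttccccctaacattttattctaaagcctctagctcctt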

How the data were processed

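RNA of 3 *Mll1KO* and 3 WT samples at P14 was read as single-end libraries. The authors aligned reads with STAR 2.0.4b to mm10 (the methods write another build), counted them with featureCounts 1.45 and deposited RPKM per gene and library, the unit used here. The log2 fold change, log2 CPM, p-value and FDR columns come from the edgeR comparison of the authors (3.17.9 in the labels, another version in the methods) and were not used. Strandedness was not given in the sources used here.

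From the deposited RPKM, totals and lengths were solved for as the values that give each gene whole reads (tolerance 0.005). The fit was limma 3.58.1 (R 4.3.3) on log2(RPKM + 1) with a variance trend and no other terms, and p was adjusted by Benjamini-Hochberg across the 11339 genes (threshold 0.05). The design foresaw limma for normalized values. The scale with 1 added understates changes of low genes. The fit was tested on simulated data with 200 changed genes among 11339. There 100% of the genes changed by 1 on the log2 scale were called, and 6.13% of the calls were unchanged genes. The spread between simulated samples was fixed and not estimated from these data, and far fewer genes changed than the 2643 called here. Changes as small as those of *Grm6* (-0.26) and *Gnao1* (-0.15) were not simulated, so the simulation does not show how reliably such changes are called. Ratios to *Grm6* used exact two-sided permutation tests with Benjamini-Hochberg adjustment over the ratios.

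Alternatives were other pseudocounts, a filter on mean RPKM, limma-voom on recovered reads, TMM, RLE and upper-quartile factors, scaling to 12 rod or 7 pan-bipolar genes, and leaving out each library. Genes and lists were chosen with earlier results of these data known. The 10 genes, 16 partners and *Kmt2a* were named, and of each family and cell list the highest, lowest and most abundant gene. Some genes that met this rule are not reported here. *Chtf18*, *Pet100* and *Gm12660* were added for their overlap, and other genes where a count of 5 or fewer is spelled out, after their values were seen. Coordinates are from GENCODE vM21 (GRCm38).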

Additional observations from a re-analysis of the deposited data

How the results depend on the processing

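Of the alternatives, both scalings to a cell type and the removal of libraries changed the most. Genes called numbered 2643 with library totals, 7212 with rod scaling, 10064 with pan-bipolar scaling and 1704 to 2536 without single libraries (1704 without WT b, 1757 without *Mll1KO* c). Of the 10 genes, 4 were called with library totals, 7 (0 higher) with rod scaling, 7 (0 lower) with pan-bipolar scaling, and 2 to 4 without single libraries (2 without WT a, WT b, *Mll1KO* b or *Mll1KO* c). Of the partners, 5 were called with library totals, 9 with rod scaling, 15 with pan-bipolar scaling and 3 to 5 without single libraries (3 without WT a or *Mll1KO* c). Pan-bipolar scaling turned *Grm6* to 0.15, *Gpr179* to 0.11, *Gnao1* to 0.26, *Gng13* to 0.27, *Rgs7* to 0.29 and *Prkca* to 0.30. Rod scaling turned *Nyx* to -0.14, *Pcp2* to -0.11 and *Rgs11* to -0.052. Without single libraries *Nyx* ran from -0.022 to 0.044, *Pcp2* from -0.0032 to 0.13 and the ratio of *Gpr179* to *Grm6* from -0.092 to 0.048. Without the 3 libraries highest in pigment genes, an alternative chosen after seeing the data, 806 genes, 2 of the 10 genes and 2 partners were called, and the lone WT sample was assumed to vary like the other group. With a replicate block, 2242 genes, 4 of the 10 genes and 5 partners were called and *Gnb1*, *Syt2*, *Gnaz* and *Prkci* lost their calls. The labels name no pairing by letter. Deviations from the group mean correlated across genes at -0.04, -0.19 and -0.01 for same letters and at -0.09 to 0.13 for different letters. Deviations within 3 samples constrain each other and genes are not independent replicates, so these values cannot decide whether samples were paired. Of the fold changes of the 10 genes under the alternatives, 131 kept direction and side of the threshold, 17 kept direction and lost the call, 9 kept direction and gained it, and 13 turned, with or without a call. The cause was not tested. The lowest read number of any gene was 90, and genes below the filter of the authors are absent.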
